A study of Rattus norvegicus with 8 samples.

Results

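The genes described here carry the hormone and serotonin output of enteroendocrine cells, the secretory sensor cells scattered through the epithelium of the gut. The list holds 10 genes by name: Tph1 and Slc6a4 for the synthesis and reuptake of serotonin, Chga and Chgb for granule proteins, Gcg, Pyy, Insl5, Sst and Sct for peptide hormones, and Neurod1 for a transcription factor. Each was looked up on the arrays through the accession of its probes. In this way, 8 of the 10 genes were found, with 10 probes between them, and all 10 probes were well above background in all 16 rats. Insl5 and Sct matched no probe and have no value here. The 8 genes stand among 19899 genes tested.

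The samples were 5-mm pieces of the middle colon from female Wistar rats, 6 weeks old, that had eaten 1 of 4 diets for 3 weeks. REF rats received a reference diet, C10 rats a diet with 10 % cocoa, CF rats cocoa fiber in the amount that the cocoa supplied, with little of its polyphenols, and I rats inulin as the soluble fiber. Arrays cover 4 of the 10 rats of each diet. The source labels name the diet of each channel and not the rat. Each channel was read as a separate rat, on 1 array in 1 dye, although the methods of the study mention a dye swap for each RNA. Every n, SD and p here rests on that reading. The pieces hold the whole wall, muscle and nerve included, so that fewer enteroendocrine cells and less RNA per cell cannot be told apart. All values are normalized log2 signals, given as mean ± SD (n = 4) for a diet, and a level is compared between diets for the same probe only. Differences between diets are log2 fold changes from a limma fit that takes account of dye and array and so can depart from the difference of the means. A gene passed when its p, adjusted over all genes tested, was below 0.05. Exact permutation tests of 4 rats against 4 are two-sided and cannot give a p below 0.0286.

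Enterochromaffin cells are the enteroendocrine cells that make serotonin. They convert tryptophan to hydroxytryptophan with Tph1, the rate-limiting step, and then to serotonin with the decarboxylase Ddc, store it in granules with the chromogranins, and release it when the lumen stimulates them, after which the transporter Slc6a4 takes it up. L cells, another kind that is common in the colon, process the product of Gcg to glucagon-like peptides and also secrete peptide YY, while D cells secrete somatostatin.

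Markers of the colon were present in every sample. The keratin Krt19 read 15.81 ± 0.18 in REF, 15.59 ± 0.11 in C10, 15.66 ± 0.30 in CF and 15.55 ± 0.10 in I, and Guca2a, Clca1 and the muscle genes Actg2 and Myh11 were also well above background in all 16 rats. Several samples stood apart in other markers before any diet was compared. Hoxb13, a Hox gene of the posterior end of the gut, was lowest in REF replicate 4 (6.60), CF replicate 2 (9.72) and I replicate 2 (9.96), and lay between 12.36 and 14.88 in the other rats. In C10 replicate 1 the mean signal of the 8 smooth muscle markers was 12.26, against 13.84 to 14.86 in the other rats. Every diet had 2 rats on odd-numbered and 2 on even-numbered arrays.

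None of the 8 genes passed in any of the 6 comparisons with limma. For C10 against REF, 0 of 8 passed, beside 0.94 % of all genes tested, 4 of 8 had an unadjusted p below 0.05 (Tph1, Chga, Chgb and Neurod1), beside 17.1 %, and 0 of 8 had no overlap between the 2 diets, beside 4.64 %. Rank product, which the authors had applied, passed 2 of the 8 in this comparison, Tph1 and Chga, and 285 of all 19899 genes. The paper lists both among its genes at least 2-fold lower in C10 than in REF. It also leaves their smaller CF and I values unmarked as non-significant, whereas rank product here passed neither gene in CF or I against REF. The median log2 fold change of the 8 was -0.11, with 4 negative and 4 positive, and that of all genes 0.013.

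Tph1 showed the largest difference. Its signal was 9.94, 10.42, 8.93 and 10.92 in REF replicates 1 to 4, and 8.93, 8.99, 8.63 and 8.55 in C10 replicates 1 to 4. In CF it was 9.29, 10.51, 8.63 and 9.26, and in I it was 9.27, 10.32, 9.73 and 10.10. The C10 rats lay close together at the bottom of the range, REF replicate 3 and CF replicate 3 lay among them, and all I rats lay above them. By level the diets ran from REF (10.05 ± 0.85) through I (9.86 ± 0.46) and CF (9.42 ± 0.79) to C10 (8.77 ± 0.22), and each neighbouring pair in this order was closer than the larger of its SDs. Against REF, the log2 fold change of Tph1 in C10 was -1.35 (SE 0.36, 95 % interval -2.13 to -0.58), 2.56-fold lower, with an unadjusted limma p of 0.00209 and an adjusted p of 0.0843. Lower than all REF rats were 3 of the 4 C10 rats (exact permutation p = 0.0571). Single rats decided the call: without REF replicate 3 the value was -1.64 (limma adjusted p = 0.0241) and without CF replicate 2 it was -1.26 (adjusted p = 0.0460), whereas leaving out other rats 1 at a time, normalizing otherwise or changing the terms of the model did not bring Tph1 past the threshold. Rank product gave a percentage of false positives of 0.00481 as a fraction, and over all alternatives the adjusted p ran from 0.00481 to 0.322.

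The other probe of Tph1 gave the same order of diet means, at 7.86 ± 0.42 in REF, 7.05 ± 0.21 in C10, 7.35 ± 0.44 in CF and 7.61 ± 0.32 in I. Over the 16 rats it followed the first probe with r = 0.970, and its means were -0.81 apart between C10 and REF where those of the first were -1.28 apart. Both probes carry the same accession, so they read the same transcript and are not independent.

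**Figure D1:**
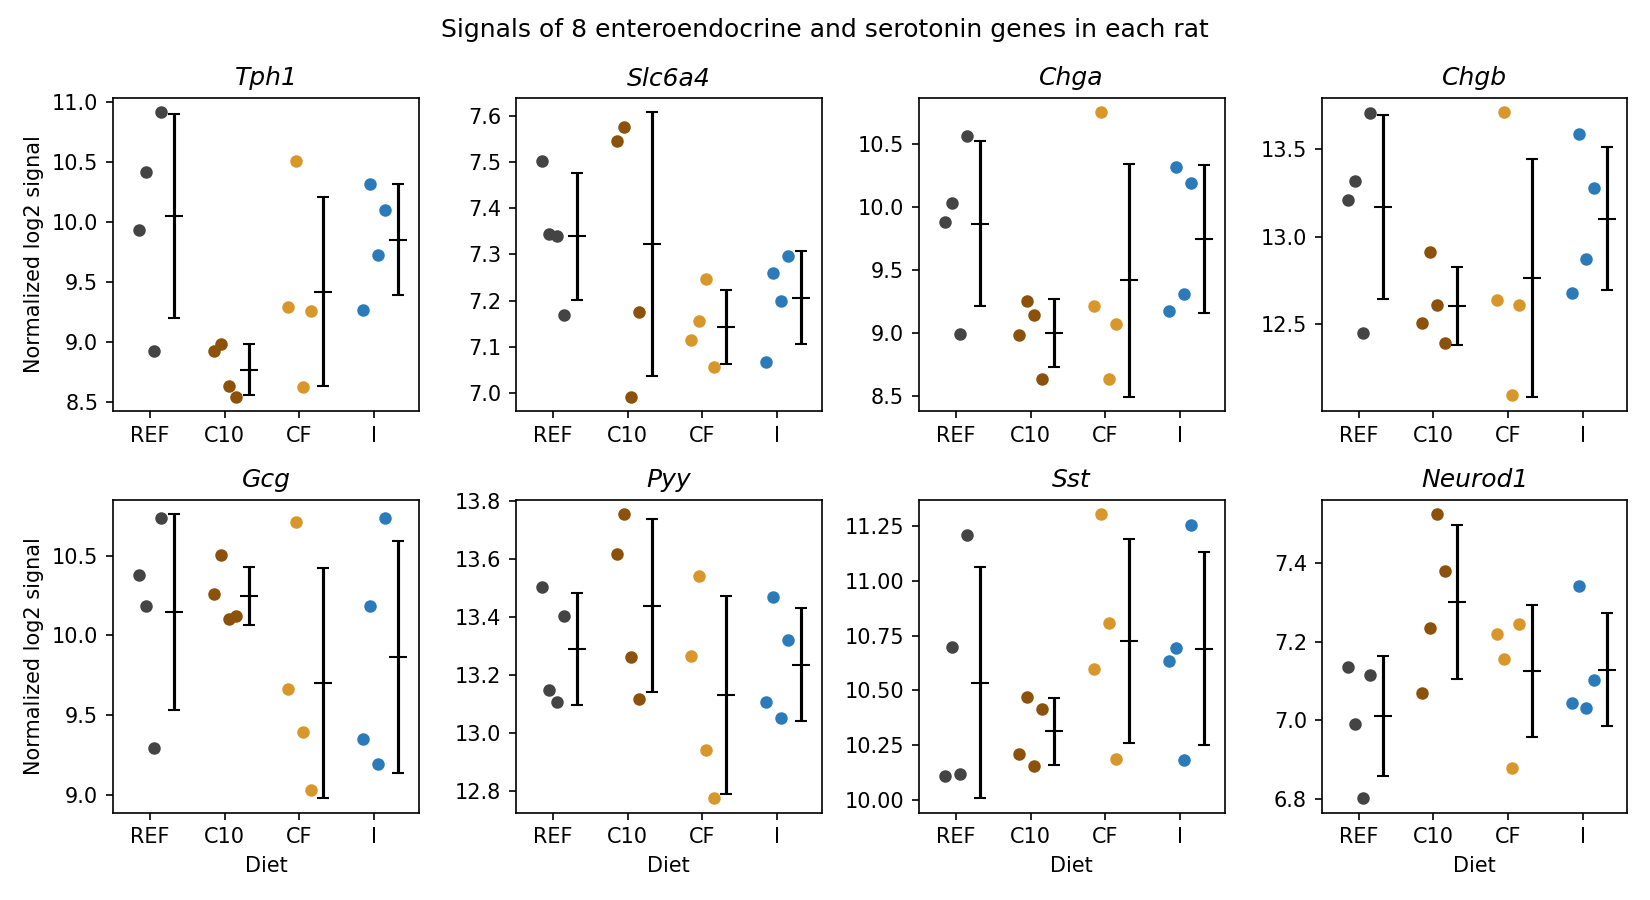
Normalized log2 signal (vertical axis) of 8 genes in each of 16 rats by diet (horizontal axis). Points are rats in the order of their replicate numbers, and the bar beside them is the mean with SD (n = 4). Tph1 in C10 lies between 8.55 and 8.99, below all I rats and below 3 of the 4 REF rats, and the vertical scales differ between genes.

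Slc6a4, the serotonin transporter of the plasma membrane, was 7.34 ± 0.14 in REF, 7.32 ± 0.29 in C10, 7.14 ± 0.08 in CF and 7.21 ± 0.10 in I. C10 replicates 1 and 2 (7.55 and 7.58) were the highest of the 16 rats, and C10 replicate 3 (6.99) was the lowest. Its log2 fold change in C10 against REF was 0.026 (SE 0.10, 95 % interval -0.19 to 0.24, limma adjusted p = 0.928), although the means differ by -0.017, a size far below the SD.

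Among 9 tested genes of the serotonin pathway outside the list, from its cofactor enzymes to its breakdown, 1 passed in C10 against REF and 0 rose. This was Ddc, the decarboxylase that follows Tph1 and that also serves dopamine synthesis. Its signal was 12.89, 13.02, 12.66 and 12.77 in the REF rats and 12.13, 11.65, 12.12 and 12.04 in the C10 rats. In CF it was 12.46, 12.42, 11.96 and 12.01, and in I it was 12.65, 12.95, 12.54 and 12.63. All C10 and all CF rats were below all REF rats and below all I rats, and REF and I overlapped. Over all genes tested, groups did not overlap for 4.64 % in C10 against REF and 1.9 % in CF against REF. Against I these shares were 5.93 % for C10 and 1.03 % for CF. Ddc is named because it passed, so separation and exact p of C10 in the same rats are a description and no further support. In C10 against REF, Ddc fell by 0.97 on the log2 scale (SE 0.13, limma adjusted p = 0.00380; exact permutation p = 0.0286), a 1.96-fold difference seen in 4 of 4 rats. The call held in 31 of the 32 alternatives and was lost with log-ratios within arrays alone (-1.13, adjusted p = 0.159). In CF the value was -0.71 (SE 0.14), which did not pass (limma adjusted p = 0.626; exact permutation p = 0.0286), and in I it was -0.11 (SE 0.13, limma adjusted p = 0.955; exact permutation p = 0.257). With 1 rat left out, the value in I ran from -0.20 to -0.032.

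The vesicle transporter Slc18a1, which loads serotonin into the granules of enterochromaffin cells, was 9.02, 9.53, 7.99 and 9.80 in REF and 8.11, 8.16, 8.47 and 7.80 in C10. REF replicate 3 was again inside the C10 range and the other REF rats above it. The log2 fold change was -1.14 (SE 0.38) and did not pass (limma adjusted p = 0.157). For Maob, which breaks down monoamines, it was -0.32 (SE 0.13, limma adjusted p = 0.230). The median of the 9 pathway genes was -0.25, with 5 of 9 negative, beside 0.013 for all genes tested.

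The chromogranins, acidic proteins that pack the dense granules of endocrine cells, showed the same order of diet means as Tph1, although in the fit I lay above REF by 0.041 for Chga and 0.055 for Chgb and below it by 0.019 for Tph1, far less than the SE. Chga was 9.88, 10.03, 8.99 and 10.56 in REF, and 8.98, 9.25, 9.14 and 8.63 in C10. It was 9.21, 10.75, 8.63 and 9.07 in CF, and 9.18, 10.32, 9.31 and 10.19 in I. As with Tph1, REF replicate 3 and CF replicate 3 were low and CF replicate 2 was high, and I replicate 1 fell inside the range of C10. The means were 9.87 ± 0.65 in REF, 9.75 ± 0.59 in I, 9.42 ± 0.92 in CF and 9.002 ± 0.270 in C10, neighbours again differing by less than their spread. In C10 against REF the log2 fold change of Chga was -0.98 (SE 0.36, 95 % interval -1.75 to -0.21), which did not pass with limma (adjusted p = 0.187; exact permutation p = 0.0857) but did with rank product (0.0316). Over all alternatives its adjusted p ran from 0.0316 to 0.688.

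Chgb was 13.21, 13.32, 12.45 and 13.70 in REF, and 12.50, 12.91, 12.61 and 12.39 in C10. CF gave 12.64, 13.71, 12.09 and 12.61, and I gave 12.68, 13.58, 12.87 and 13.28. REF replicate 3 was lower than 3 of the C10 rats, so that REF and C10 overlapped more for Chgb than for Tph1. The diets ran from REF (13.17 ± 0.53) and I (13.10 ± 0.41) to CF (12.76 ± 0.68) and C10 (12.60 ± 0.22). Against REF the log2 fold change in C10 was -0.66 (SE 0.27, 95 % interval -1.24 to -0.07, limma adjusted p = 0.240; exact permutation p = 0.114).

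The peptide hormones did not share this order. Gcg, the precursor of the glucagon-like peptides, was 10.38, 10.18, 9.29 and 10.74 in REF and 10.26, 10.50, 10.10 and 10.12 in C10, which lay close together (SD 0.19). In CF it was 9.66, 10.71, 9.39 and 9.03, and in I it was 9.35, 10.18, 9.19 and 10.74. C10 had the highest mean (10.25), followed by REF (10.15 ± 0.62), I (9.86 ± 0.73) and CF (9.70 ± 0.72), with differences smaller than the spread. Its log2 fold change in C10 against REF was 0.018 (SE 0.29, 95 % interval -0.61 to 0.65, limma adjusted p = 0.987) and its sign depended on the setting.

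Pyy, which slows transit and gastric emptying, was 13.29 ± 0.19 in REF, 13.44 ± 0.30 in C10, 13.13 ± 0.34 in CF and 13.24 ± 0.19 in I. C10 replicates 1 and 2 (13.62 and 13.75) were above all other rats, and CF replicates 3 and 4 (12.94 and 12.78) below all others. The log2 fold change in C10 against REF was 0.13 (SE 0.16, limma adjusted p = 0.740). A second Pyy probe followed the first with r = 0.959 over the 16 rats and gave means 0.15 apart between C10 and REF, as the first did. Sst, the inhibitory hormone of D cells, was 10.54 ± 0.53 in REF, 10.31 ± 0.15 in C10, 10.72 ± 0.47 in CF and 10.69 ± 0.44 in I. REF replicate 4 (11.21), CF replicate 2 (11.31) and I replicate 4 (11.26) were the highest rats for Sst, and C10 lay between 10.16 and 10.47. The log2 fold change in C10 against REF was -0.23 (SE 0.22, limma adjusted p = 0.637), and it ran from -0.45 to -0.067 with 1 rat left out.

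Neurod1, a basic helix-loop-helix factor of differentiating enteroendocrine cells, was 7.14, 6.99, 6.80 and 7.12 in REF and 7.07, 7.23, 7.52 and 7.38 in C10. Above all REF rats were 3 of the 4 C10 rats, the opposite order to that of Tph1 and the chromogranins. CF was 7.12 ± 0.17, with 3 of its 4 rats also above all REF rats, and I was 7.13 ± 0.14. The log2 fold change in C10 against REF was 0.22 (SE 0.10, 95 % interval 0.01 to 0.43, limma adjusted p = 0.264; exact permutation p = 0.0857). Over all alternatives it ran from 0.13 to 0.47, with 0.38 when normexp had no offset and 0.47 with the processed signals of Feature Extraction. Neurod1, like Slc6a4, was dim. The lowest signal counted as well above background ran from 5.83 in C10 replicate 4 to 6.21 in CF replicate 2. The size of the Neurod1 difference thus depended on the background correction.

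**Figure D2:**
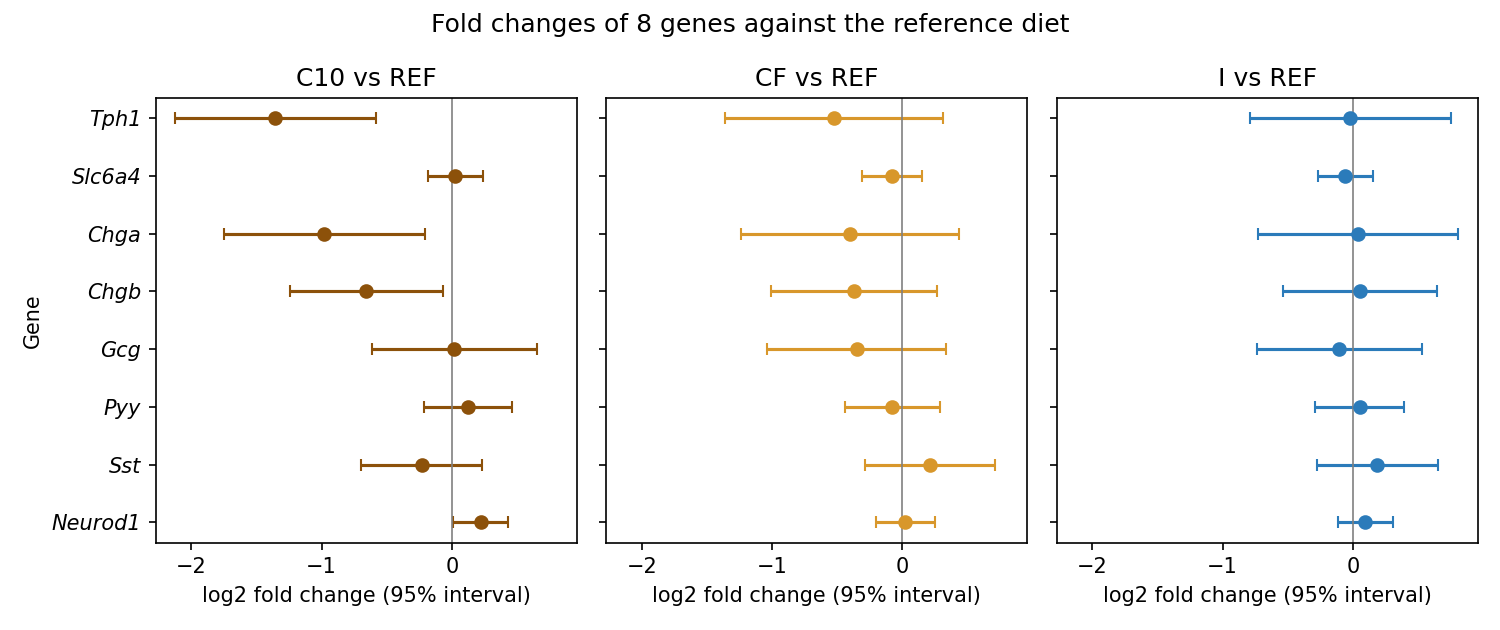
Log2 fold change from limma (horizontal axis) with its 95 % interval for 8 genes (vertical axis) in C10, CF and I against REF, 4 rats per diet. In C10 the points of Tph1 (-1.35), Chga (-0.98) and Chgb (-0.66) lie left of 0 and that of Neurod1 (0.22) right of it, without passing after adjustment, and in CF and I every interval holds 0.

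CF and I were compared with the same 4 REF rats as C10, so the 3 comparisons are not independent. In CF against REF, 0 of 8 genes passed, beside 0 % of all genes, 0 of 8 had an unadjusted p below 0.05, beside 6.34 %, and 0 of 8 separated the groups, beside 1.9 %. For all genes, limma passed 0, with 1261 at an unadjusted p below 0.05, and rank product passed 127, none of the 8 among them. Tph1 gave -0.53 (SE 0.39, 95 % interval -1.36 to 0.31), Chga -0.40 (SE 0.39), Chgb -0.37 (SE 0.30), Gcg -0.35 (SE 0.32) and Sst 0.21 (SE 0.23), with limma adjusted p from 0.891 to 0.985 over the 8. With 1 rat left out, the value ran from -0.95 to -0.20 for Tph1, -0.88 to -0.095 for Chga, -0.72 to -0.13 for Chgb, -0.63 to -0.13 for Gcg and 0.039 to 0.42 for Sst. The CF rats spread widely for the first 4 of these genes, from CF replicate 2, among the highest of all rats, to CF replicate 3 or 4, among the lowest. Slc6a4 was lower in 3 of the 4 CF rats than in all REF rats, with means -0.20 apart (exact permutation p = 0.0571) and a fitted value of -0.078 (SE 0.11). With 1 rat left out, this fitted value ran from -0.13 to -0.033.

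In I against REF, 0 of 8 genes passed, beside 0 % of all genes, 0 of 8 had an unadjusted p below 0.05, beside 5.66 %, and 0 of 8 separated the groups, beside 2.03 %. Over all genes limma passed 0, with 1127 at an unadjusted p below 0.05, and rank product 69, none of the 8 among them. The log2 fold changes lay between -0.10 for Gcg and 0.19 for Sst, with Tph1 at -0.019 (SE 0.36, 95 % interval -0.79 to 0.75) and exact permutation p from 0.17 to 0.83. An interval of this width leaves room for a difference of either sign. With 1 rat left out, the value of Sst ran from 0.060 to 0.44.

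Direct comparisons of the diets bear on the cocoa as a whole against its fiber. The paper reports that C10 rats ended lighter than the other groups while eating similar amounts, so diet and body weight cannot be told apart here. In C10 against CF, 0 of 8 genes passed, beside 0.407 % of all genes, 1 of 8 had an unadjusted p below 0.05 (Tph1), beside 13.5 %, and 0 of 8 separated the groups, beside 3.51 %. Tph1 gave -0.83 (SE 0.36, 95 % interval -1.60 to -0.06, limma adjusted p = 0.332; exact permutation p = 0.143), a value that was -0.31 without CF replicate 2. Ddc gave -0.26 (SE 0.13, limma adjusted p = 0.399). For Sst the value was -0.44 (SE 0.22) and for Gcg 0.37 (SE 0.29), with adjusted p of 0.392 and 0.626. With 1 rat left out, Sst ran from -0.59 to -0.23, Gcg from 0.19 to 0.69 and Ddc from -0.34 to -0.15.

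C10 and I rats shared no array, since arrays 1 to 4 hold the C10 rats and arrays 5 to 8 the I rats, and the link between them runs through REF and CF rats. In C10 against I, 0 of 8 genes passed, beside 0.543 % of all genes, 3 of 8 had an unadjusted p below 0.05 (Tph1, Chga and Chgb), beside 12.3 %, and 1 of 8 separated the groups, beside 5.93 %. This gene was Tph1, lower in 4 of 4 C10 rats than in any I rat, with a log2 fold change of -1.34 (SE 0.39, 95 % interval -2.17 to -0.50, limma adjusted p = 0.164; exact permutation p = 0.0286). Rank product passed it (0.00917), among 212 of all 19899 genes, and its adjusted p over all alternatives ran from 0.00917 to 0.582. Chga gave -1.02 (SE 0.39) and Chgb -0.71 (SE 0.30), with adjusted p of 0.308 and 0.351. Ddc fell by 0.86 (SE 0.14, limma adjusted p = 0.0160), with 4 of 4 C10 rats below all I rats, and passed in 27 of 32 alternatives. It did not pass without I replicate 2 (-0.75, adjusted p = 0.0708), without I replicate 4 (-0.87, 0.0576), without the 3 rats of lowest Hoxb13 (-0.65, 0.113), with log-ratios within arrays alone (-1.06, 0.263) or with rank product (-0.71, 0.0609), although the value stayed negative in each.

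In CF against I, 0 of 8 genes passed, beside 0 % of all genes, 0 of 8 had an unadjusted p below 0.05, beside 2.84 %, and 0 of 8 separated the groups, beside 1.03 %. Over all genes limma passed 0, with 565 at an unadjusted p below 0.05, and rank product 34, none of the 8 among them. The values ran from -0.51 for Tph1 to 0.024 for Sst, with 7 of 8 negative, and that of Tph1 lay between -0.85 and -0.25 with 1 rat left out.

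Across the 16 rats Tph1, Chga and Chgb moved together. With the dye effect of each gene removed, 8 of 28 pairs among the 8 genes had a Pearson permutation p below 0.05 after adjustment over the 28. Tph1 and Chga gave r = 0.974 and rho = 0.979, Tph1 and Chgb r = 0.956 and rho = 0.953, and Chga and Chgb r = 0.982 and rho = 0.965, each with a permutation p of 1e-05, the smallest that 100000 permutations can give (adjusted p = 9.33e-05). The permutation treats the 16 rats as independent and leaves aside that they share arrays in pairs. The share of such pairs among all genes was not computed, so nothing particular to these 8 is read from the count. Without REF replicate 4 and CF replicate 2, the rats farthest from the median of the first gene, r was 0.965, 0.929 and 0.973, and after the mean of each diet was subtracted it was 0.986, 0.984 and 0.985. Within the 8 rats of odd-numbered arrays r was 0.895, 0.896 and 0.991, and within the 8 rats of even-numbered arrays 0.989, 0.975 and 0.983. So the 3 genes rise and fall together from rat to rat within a diet as well as between diets.

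The L cell hormones Gcg and Pyy also varied together, with r = 0.768 and rho = 0.788 (permutation p = 0.00058 and 0.00061, adjusted p = 0.00406 and 0.00427). Without REF replicate 3 and CF replicate 4, r was 0.679, after subtraction of the diet means 0.730, and within odd-numbered and even-numbered arrays 0.909 and 0.708. After subtraction of the diet means Pyy also gave 0.711 with Tph1, 0.710 with Chga and 0.714 with Chgb. Over the 16 rats these were 0.307, 0.416 and 0.479 and did not pass. Gcg also varied with the chromogranins, at r = 0.641 with Chga and 0.659 with Chgb (adjusted p = 0.0318 and 0.0275; rho = 0.565 and 0.641, adjusted p = 0.102 and 0.0494), and these values were 0.466 and 0.502 without REF replicate 4 and CF replicate 2. After subtraction of the diet means they were 0.893 and 0.851, higher than the 0.730 of Gcg with Pyy, and Gcg with Tph1 gave 0.884, while within either kind of array those with Chga and Chgb lay between 0.456 and 0.553. Over the 16 rats Gcg with Tph1 gave r = 0.525, which did not pass (permutation, adjusted p = 0.0887). This r was 0.301 without REF replicate 4 and CF replicate 2, and 0.183 and 0.472 in odd-numbered and even-numbered arrays. Sst gave r = 0.620 with Tph1 and 0.659 with Chga (adjusted p = 0.0401 and 0.0275), but rho of 0.474 and 0.462 did not pass (adjusted p = 0.149 for both), r was 0.368 and 0.385 without REF replicate 4 and CF replicate 2, and in odd-numbered arrays it turned to -0.24 and -0.30. After subtraction of the diet means it was 0.662 and 0.681, and in even-numbered arrays, which hold REF replicate 4 and CF replicate 2, 0.784 and 0.843. The relations of Sst thus depended on which rats were taken. Slc6a4 and Neurod1 had no pair that passed, with r of 0.026 and -0.10 to Tph1. After subtraction of the diet means Neurod1 gave 0.442 with Tph1, 0.481 with Chga and 0.529 with Chgb. In even-numbered arrays these were -0.640, -0.610 and -0.549, and in odd-numbered arrays -0.037, 0.325 and 0.330.

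For each gene the 3 most similar of the other 19898 genes were sought by Pearson r over the 16 rats. Tph1 was most like Chga, a transcript without a symbol (r = 0.963) and Mettl7a (r = 0.958), and Chgb was most like Chga, Sqor (r = 0.960) and Tph1. The genes nearest to Gcg were Plg (r = 0.911) and 2 probes without a symbol, and those nearest to Pyy were Nudt4 (r = 0.859), Cidea (r = 0.857) and Stt3b (r = 0.856). Slc6a4 was nearest to Slc22a7 (r = 0.856), Sst to a transcript without a symbol (r = 0.854) and Cfap418 (r = 0.848), and Neurod1 to Trim36 (r = 0.892) and Mtus1 (r = 0.844). These are descriptions of likeness over the same 16 rats.

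Tph1, Chga and Chgb were high in the rats with the least Hoxb13. Hoxb13 was 13.13, 12.36, 14.06 and 6.60 in REF, 14.05, 14.35, 13.42 and 14.88 in C10, 13.93, 9.72, 13.98 and 14.35 in CF, and 13.78, 9.96, 13.57 and 12.62 in I. REF replicate 4, CF replicate 2 and I replicate 2, low in Hoxb13, were the highest rats of their diets for Tph1, Chga and Chgb, and REF replicate 3, with the most Hoxb13 in its diet, was the lowest REF rat for all 3. Since Hoxb13 was chosen for this after its values were seen, its correlations are given as a description over 16 rats, with no p. Tph1 gave r = -0.84 and rho = -0.87, Chga r = -0.86 and rho = -0.89, and Chgb r = -0.83 and rho = -0.84. Without REF replicate 4 and CF replicate 2, r was -0.80, -0.82 and -0.79, and after subtraction of the diet means -0.82, -0.83 and -0.81. Within odd-numbered arrays r was -0.73, -0.84 and -0.87, and within even-numbered arrays -0.87, -0.89 and -0.91.

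Gcg (r = -0.56, rho = -0.52) and Sst (r = -0.67, rho = -0.46) also gave a negative r with Hoxb13, but without REF replicate 4 and CF replicate 2 it shrank to -0.24 and -0.34, and in odd-numbered arrays it was -0.44 for Gcg and 0.31 for Sst. After subtraction of the diet means r was -0.72 for Gcg and -0.70 for Sst, and in even-numbered arrays -0.54 and -0.73. For Pyy r was -0.34, for Slc6a4 0.16 and for Neurod1 -0.041, and after subtraction of the diet means -0.54, 0.23 and -0.41. In odd-numbered arrays these 3 gave -0.33, 0.065 and -0.57, and in even-numbered arrays -0.39, 0.31 and 0.33. The Hoxb13 signal of each rat was added to the model as an alternative chosen after the data were seen. The C10 values against REF then became -0.74 for Tph1 (limma adjusted p = 0.322), -0.36 for Chga (0.688), -0.19 for Chgb (0.824) and -0.86 for Ddc (0.0382). None of the 3 rats lowest in Hoxb13 was in C10, so this term and diet are partly confounded. Without the 3 rats of lowest Hoxb13 the values were -1.07 for Tph1 (0.0779), -0.72 for Chga (0.151) and -0.45 for Chgb (0.254), and Ddc had -0.996 (0.00603). Hoxb13 itself differed between C10 and REF by 2.76 (SE 1.37), which did not pass (limma adjusted p = 0.322), and the part of position along the colon in the differences between diets was not tested.

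**Figure D3:**
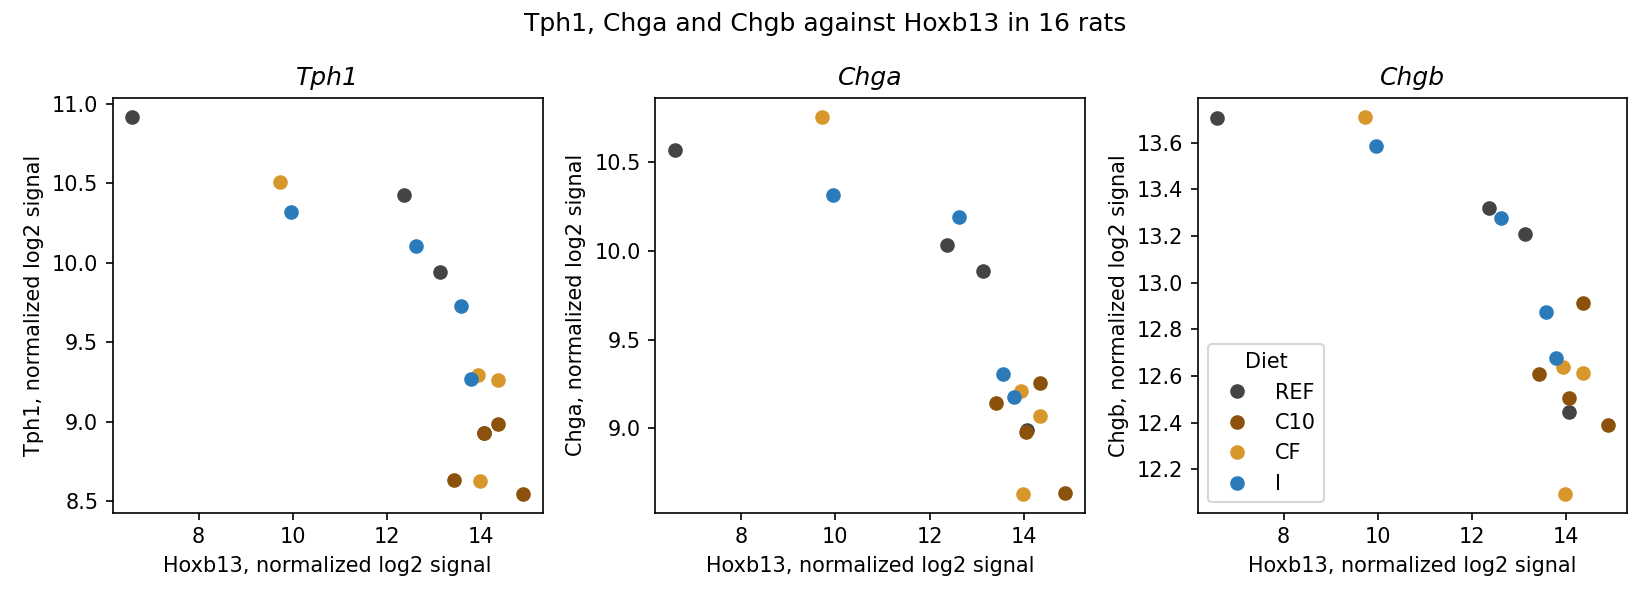
Normalized log2 signal of Tph1, Chga and Chgb (vertical axes) against that of Hoxb13 (horizontal axis) in 16 rats, with diets by color. The rats low in Hoxb13, at 6.60, 9.72 and 9.96, are high in all 3 genes, and the C10 rats, at 13.42 to 14.88, are low.

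Other position markers were read beside it. Of 5 tested posterior Hox genes, 0 passed in C10 against REF, with a median of 0.999 and 1 of 5 negative, and the mean signal of the 5 was lowest in REF replicate 4 (7.60), CF replicate 2 (8.43) and I replicate 2 (8.49) and highest in C10 replicate 4 (10.35). Hoxd13 gave 1.01 (SE 0.43) and Hoxa11 -0.77 (SE 0.30). Of 6 stomach genes, 0 passed, with a median of -0.90 and 5 of 6 negative, and their mean was 8.06 in REF replicate 4, 7.94 in REF replicate 2, 7.78 in CF replicate 2 and 7.58 in I replicate 2, against 6.67 to 7.35 in the other rats. Their examples Pga5 and Gkn2 gave -1.44 (SE 0.32, limma adjusted p = 0.0508) and -1.40 (SE 0.56), the latter well above background in 8 of 16 rats and in 2 of the 4 C10 rats, so that its size is uncertain, and Pgc -0.050 (SE 0.12). Of 5 small intestine genes, 0 passed, with a median of -0.42 and 3 of 5 negative, among them Fabp2 (-0.99, SE 0.44), Apoa4 (-0.63, SE 0.54) and Apoa1 (-0.42, SE 0.43). Their mean was highest in REF replicate 4 (9.66), REF replicate 1 (9.38) and C10 replicate 1 (9.27), and was 8.78 in CF replicate 2 and 9.09 in I replicate 2. The part of these lists in the differences of Tph1 and the chromogranins was not tested.

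Mast cells in rodents also contain Tph1 and serotonin, and most of the marker genes tested had lower RNA in C10. In C10 against REF, 9 of 13 mast cell genes fell with limma and 0 rose, with 12 of 13 negative and a median of -1.08. Mcpt8 had a mean of 12.65 ± 0.43 in REF against 10.76 ± 0.72 in C10, a difference of -1.71 (SE 0.27, adjusted p = 0.0113), Mcpt9 gave -1.73 (SE 0.27, adjusted p = 0.0113) and Mcpt1 -2.49 (SE 0.32, adjusted p = 0.00380). All 13 genes had a mean signal of 9.11, 8.75, 8.98 and 9.03 in REF, 8.10, 8.02, 7.54 and 7.49 in C10, 8.67, 8.95, 8.93 and 8.48 in CF, and 8.88, 9.14, 8.95 and 9.14 in I. C10 rats lay below all others by this mean. No correlation of Tph1 or Ddc with this mean was computed. The part of mast cells in the Tph1 and Ddc values of C10 was not tested.

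Muscle and nerve genes set C10 replicate 1 apart, and lymphoid genes split the rats by array number. Of 8 smooth muscle genes, 0 passed in C10 against REF, with 8 of 8 negative and a median of -0.78, and C10 replicate 1 was the lowest rat for Actg2 (14.91), Myh11 (13.12) and Cnn1 (8.88). Of 11 enteric neuron genes, 0 passed, with 9 negative and a median of -0.24, and their mean was 7.16 in C10 replicate 1 against 7.95 to 8.32 elsewhere. Uchl1 gave -0.72 (SE 0.29), Snap25 -0.67 (SE 0.23) and Prph -0.61 (SE 0.31). Of 6 lymphoid genes, 0 passed, with 0 negative and a median of 0.29, and their mean ran from 7.78 to 9.97 in rats of odd-numbered arrays and from 6.78 to 7.22 in those of even-numbered arrays. Without C10 replicate 1 the C10 value of Tph1 against REF was -1.51 (limma adjusted p = 0.0984), and with odd and even arrays as a term, chosen after the data were seen, it was -1.33 (0.0707).

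Among the lists of other epithelial cells, no gene passed in C10 against REF. Among 9 general epithelial genes the median was 0.079, with Krt19 at -0.22 (SE 0.09), Krt20 at -0.22 (SE 0.22), Cdh1 at 0.22 (SE 0.13) and Cdx2 at -0.38 (SE 0.31), for which C10 replicate 4 (12.00) was the lowest rat. Among 9 genes of absorptive colonocytes it was 0.10, with Guca2b at 1.16 (SE 0.31, limma adjusted p = 0.0853), Aqp8 at 0.88 (SE 0.41), Guca2a at -0.18 (SE 0.29) and Cdhr5 at 0.16 (SE 0.15). All 6 goblet cell genes were negative, with a median of -0.37, Agr2 at -0.77 (SE 0.29), Zg16 at -0.67 (SE 0.31) and Clca1 at -0.27 (SE 0.33). All 5 tuft cell genes were also negative, with a median of -0.19, Trpm5 at -0.37 (SE 0.20) and Avil at -0.095 (SE 0.16).

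The wider machinery of enteroendocrine cells showed no gene that passed in C10 against REF. Among 8 tested transcription factors, 0 passed, with 3 negative and a median of 0.061. Foxa2, which is also expressed in other epithelial cells, gave 0.61 (SE 0.18, limma adjusted p = 0.112) and Pax4 -0.36 (SE 0.12, adjusted p = 0.160). Among 12 genes of granule formation and prohormone processing, 0 passed, with 8 negative and a median of -0.15. Carboxypeptidase E (Cpe), which trims prohormones, came closest with -0.79 (SE 0.20, adjusted p = 0.0703), with 9.62 in C10 replicate 1 against 10.44 to 11.50 in the other rats. The convertase Pcsk1 gave -0.63 (SE 0.31) and the granin Scg2 -0.38 (SE 0.20), the latter with its lowest rat again in C10 replicate 1 (9.31).

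Of 7 further gut hormones tested, 0 passed, with 5 negative and a median of -0.47. Npw, the precursor of neuropeptide W, was 9.52, 9.93, 8.63 and 10.14 in REF and 8.50, 8.34, 9.004 and 7.83 in C10, a log2 fold change of -1.34 (SE 0.40, limma adjusted p = 0.112). Like Tph1, it was high in REF replicate 4, CF replicate 2 (9.93) and I replicate 2 (9.99) and low in REF replicate 3. Tac1 (-1.12, SE 0.41, adjusted p = 0.186) and Gal (-0.73, SE 0.38, adjusted p = 0.353), which enteric neurons also express, were lowest in C10 replicate 1, at 6.49 and 8.79.

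Receptors and sensors of the cells were read in part. Of 12 serotonin receptors, 5 passed the filter on dim probes, and of these 0 passed the test, with a median of 0.0022 and 2 negative. Htr2b gave -0.75 (SE 0.21, limma adjusted p = 0.0943), with 6.69 in C10 replicate 1 against 7.77 to 8.83 in the other rats, Htr3a, a channel of enteric nerves, -0.32 (SE 0.16), and Htr5b, read above background in 4 rats, 0.046 (SE 0.08). Of 10 tested receptors of the hormones, 0 passed, with a median of -0.036 and 6 negative, among them the somatostatin receptor Sstr2 (-0.48, SE 0.29), Npy4r (-0.22, SE 0.14) and Gcgr (-0.15, SE 0.17). Of 7 tested chemosensors, 0 passed, with a median of -0.040 and 4 negative. The fatty acid receptors Ffar4 and Ffar2 gave -0.48 (SE 0.20, adjusted p = 0.232) and -0.45 (SE 0.22, adjusted p = 0.318), and the calcium-sensing receptor Casr 0.26 (SE 0.22).

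Because Tph1 and Chgb moved together, and Gcg with Pyy, their promoters are printed to show the letters around each gene's start. RefSeq windows of 300 bases around the start, on build GRCr8, were in the table for 7 of the 10 genes; Slc6a4, Chga and Sct are not in it. They were searched on both strands for CANNTG, the E-box letters that helix-loop-helix factors such as Neurod1 can bind, and for TGACGTCA and its first part TGACG, the letters of the cyclic AMP response element, which overlap. CANNTG is held by 72.1 % of 33469 promoters of the same length, TGACG by 21.2 % and TGACGTCA by 1.83 %. In the sequences below the capitals mark CANNTG, the location is chr1:106314579-106314878 on the minus strand for Tph1, chr3:140496462-140496761 on the plus strand for Chgb, chr3:67531484-67531783 on the minus strand for Gcg and chr10:87562421-87562720 on the minus strand for Pyy, and each reads 5′ to 3′ along its gene.
Tph1: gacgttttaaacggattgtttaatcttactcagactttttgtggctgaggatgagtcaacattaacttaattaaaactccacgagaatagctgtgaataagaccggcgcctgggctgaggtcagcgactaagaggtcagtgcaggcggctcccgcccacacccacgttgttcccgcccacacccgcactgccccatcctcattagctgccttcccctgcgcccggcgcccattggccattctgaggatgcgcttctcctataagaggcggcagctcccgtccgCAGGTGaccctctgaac
Chgb: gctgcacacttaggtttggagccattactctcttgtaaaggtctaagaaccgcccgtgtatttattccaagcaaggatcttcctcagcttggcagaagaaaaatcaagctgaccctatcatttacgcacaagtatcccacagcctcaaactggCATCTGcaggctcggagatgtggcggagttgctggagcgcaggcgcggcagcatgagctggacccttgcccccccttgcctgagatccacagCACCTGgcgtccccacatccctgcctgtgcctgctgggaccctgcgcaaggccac
Gcg: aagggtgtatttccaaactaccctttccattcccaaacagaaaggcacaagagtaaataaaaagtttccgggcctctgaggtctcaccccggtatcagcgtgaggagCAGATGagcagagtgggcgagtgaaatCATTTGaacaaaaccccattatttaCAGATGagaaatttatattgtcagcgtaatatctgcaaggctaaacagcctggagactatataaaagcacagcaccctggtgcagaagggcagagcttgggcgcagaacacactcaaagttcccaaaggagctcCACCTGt
Pyy: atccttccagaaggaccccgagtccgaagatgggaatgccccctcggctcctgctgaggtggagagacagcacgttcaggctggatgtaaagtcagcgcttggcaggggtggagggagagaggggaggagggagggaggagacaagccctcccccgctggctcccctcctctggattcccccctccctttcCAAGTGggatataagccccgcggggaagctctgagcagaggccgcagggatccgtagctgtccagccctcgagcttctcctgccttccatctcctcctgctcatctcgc
Tph1 and Pyy have 1 match each, Chgb has 2 and Gcg 4, of which the match of Tph1 and the last of Gcg lie after the start, and none of the 4 windows has TGACG. Among the 7 windows, TGACGTCA was found in Sst alone, with its first base at position 253 of 300, just after the start. A match is a run of letters and says nothing on binding in these rats.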

How the data were processed

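Values start from the output of Feature Extraction 10.7.3.1 as deposited by the authors, in which each spot has a median intensity, not normalized, and a median for the background around it, in both dyes. Arrays hold 62976 spots for 30367 probes. Median signals were 109.5 to 169 in Cy3 over backgrounds of 21 to 25.5, and 302.5 to 426.5 in Cy5 over 71 to 74, with 68.6 to 83.9 % of spots well above background. Outlier spots (604 to 896 per array) were left out and 0 spots were saturated.

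In limma 3.58.1 (R 4.3.3, statmod 1.5.0, data.table version 1.17.8), signals were corrected with normexp (offset 50), spatial loess (span 0.4) and intensity loess (span 0.3), then Aquantile between arrays, and the log2 signals of each dye averaged over spots. A probe was kept if well above background, in at least 50 % of its spots, in 4 or more rats. This left 22537 probes, and each gene is given by its probe with the highest signal. The limma model took diet and dye as fixed effects and blocked on array (correlation 0.42). Its variances were moderated (eBayes), and p was adjusted by Benjamini-Hochberg over 19899 genes. Permutations numbered 100000 for correlations and 100 for rank product. Summaries used Python 3.11.15, numpy 2.4.6, pandas 2.3.3 and scipy 1.17.1.

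The members and the gene lists were chosen with earlier results of these data known. Named genes are all members and, from each list, by rule, those that passed or had the largest differences, and for cell type lists those with the highest signal. Alternatives varied the background correction, normalization, model, filter, probe, test and rats, and 4 were added after the data were seen. The normalized log-ratio table of the authors was left out because its columns match no sample. Analyses of protein sequence that had been planned could not be run, as no protein table was given.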

Additional observations from a re-analysis of the deposited data

Results flagged for a closer look

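No value of the 8 genes in the 32 groups of 4 rats lay apart from its group in a Dixon test for outliers.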

How the results depend on the processing

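The 48 log2 fold changes of the 8 genes were computed again under 32 alternatives, 16 of which leave out 1 rat each and 4 of which were added after the data were seen. Of 1536 values so obtained, 1449 kept sign and call, 82 turned sign without passing and 5 passed where the limma fit did not. None of the 48 passed in that fit, so there was no call to lose. The rule for well above background was first more than 50 % of the spots of a probe and was replaced, after its counts were seen, by at least 50 %, and none of the 8 genes passed under either. Replicate numbers of different diets do not mark related rats and were not used for pairing. The pairing that the arrays allow, log-ratios within arrays, was 1 of the alternatives.

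The number of all genes that passed moved most. For C10 against REF 187, but 69 with no dye term, 0 with log-ratios within arrays alone, 37 with Hoxb13 signal as a term, 106 without the 3 rats of lowest Hoxb13, 285 with rank product, and 35 (without REF replicate 2) to 688 (without REF replicate 3) with 1 rat left out. For CF against REF 0, but 1 with odd and even arrays as a term, 127 with rank product, and 0 to 1 with 1 rat left out. For I against REF 0, but 69 with rank product, and 0 to 1 with 1 rat left out. For C10 against CF 81, but 21 with no dye term, 43 with arrays 1 to 4 and 5 to 8 as a term, 0 with log-ratios within arrays alone, 38 with Hoxb13 signal as a term, 2 without the 3 rats of lowest Hoxb13, and 3 (without CF replicate 1) to 228 (without C10 replicate 2) with 1 rat left out. For C10 against I 108, but 62 with no dye term, 20 with arrays 1 to 4 and 5 to 8 as a term, 0 with log-ratios within arrays alone, 47 with Hoxb13 signal as a term, 6 without the 3 rats of lowest Hoxb13, 212 with rank product, and 22 (without I replicate 2) to 149 (without C10 replicate 1) with 1 rat left out. For CF against I 0, but 34 with rank product, and 0 to 1 with 1 rat left out.

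Among the 8 genes the number that passed was as follows. For C10 against REF 0, but 2 with rank product, and 0 to 1 with 1 rat left out. For C10 against I 0, but 1 with rank product.

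These log2 fold changes turned sign, none passing. For Tph1, in I against REF -0.0186 became 0.0853 with no normalization between arrays, 0.1570 with arrays 1 to 4 and 5 to 8 as a term, 0.2282 with log-ratios within arrays alone, 0.1931 with Hoxb13 signal as a term, 0.1009 without the 3 rats of lowest Hoxb13 and ran from -0.4621 to 0.3758 with 1 rat left out. For Slc6a4, in C10 against REF 0.0259 became -0.0151 with Hoxb13 signal as a term, -0.0169 with rank product and ran from -0.0631 to 0.1308 with 1 rat left out. In CF against REF -0.0777 became 0.0053 with no normalization between arrays, 0.0847 with log-ratios within arrays alone. In I against REF -0.0582 became 0.0451 with log-ratios within arrays alone. In CF against I -0.0195 became 0.0089 with no normalization between arrays, 0.0396 with log-ratios within arrays alone, 0.05 without the 3 rats of lowest Hoxb13 and ran from -0.0740 to 0.0306 with 1 rat left out. For Chga, in I against REF 0.0409 became -0.0121 with no dye term, -0.0212 with odd and even arrays as a term, -0.1212 with rank product and ran from -0.3393 to 0.4111 with 1 rat left out. For Chgb, in I against REF 0.0551 became -0.0670 with rank product and ran from -0.2596 to 0.3474 with 1 rat left out. In C10 against CF -0.2818 became 0.0155 without the 3 rats of lowest Hoxb13 and ran from -0.4526 to 0.1299 with 1 rat left out. For Gcg, in C10 against REF 0.0180 became -0.0140 with no normalization between arrays, -0.1628 with arrays 1 to 4 and 5 to 8 as a term, -0.0946 with log-ratios within arrays alone and ran from -0.2033 to 0.1958 with 1 rat left out. In I against REF -0.1034 became 0.0766 with arrays 1 to 4 and 5 to 8 as a term, 0.1449 with log-ratios within arrays alone, 0.0331 with Hoxb13 signal as a term, 0.0009 without the 3 rats of lowest Hoxb13 and ran from -0.4419 to 0.1655 with 1 rat left out. In C10 against I 0.1214 became -0.0128 with no normalization between arrays, -0.2395 with arrays 1 to 4 and 5 to 8 as a term, -0.2395 with log-ratios within arrays alone and ran from -0.0327 to 0.2534 with 1 rat left out. In CF against I -0.2478 ran from -0.4671 to 0.0136 with 1 rat left out. For Pyy, in C10 against REF 0.1254 ran from -0.0172 to 0.2098 with 1 rat left out. In CF against REF -0.0765 became 0.0379 with log-ratios within arrays alone, 0.0224 with Hoxb13 signal as a term and ran from -0.2063 to 0.0614 with 1 rat left out. In I against REF 0.0516 became -0.0541 with rank product and ran from -0.0251 to 0.1793 with 1 rat left out. In C10 against I 0.0738 became -0.1041 with arrays 1 to 4 and 5 to 8 as a term, -0.1041 with log-ratios within arrays alone and ran from -0.0503 to 0.1791 with 1 rat left out. In CF against I -0.1281 ran from -0.2374 to 0.0351 with 1 rat left out. For Sst, in C10 against REF -0.2309 became 0.0750 with Hoxb13 signal as a term. In CF against I 0.0244 became -0.0041 with arrays 1 to 4 and 5 to 8 as a term, -0.0635 without the 3 rats of lowest Hoxb13 and ran from -0.1100 to 0.2499 with 1 rat left out. For Neurod1, in CF against REF 0.0243 became -0.0220 with no normalization between arrays, -0.0987 with log-ratios within arrays alone and ran from -0.0576 to 0.0988 with 1 rat left out. In I against REF 0.0972 ran from -0.0018 to 0.1432 with 1 rat left out. In CF against I -0.0729 ran from -0.1195 to 0.0120 with 1 rat left out.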

Other observations

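With 4 rats a diet, intervals are wide, and a difference that did not pass is not shown to be absent. Bulk RNA gives no count of cells, hormone or serotonin, and Insl5 and Sct could not be read. C10 and I rats meet on no array. Tph1, Chga and Chgb varied with Hoxb13 from rat to rat, and none of the 3 rats lowest in Hoxb13 was in C10. Of 13 mast cell genes, 9 fell in C10 against REF with limma, and the part of mast cells in Tph1 and Ddc was not tested.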
